A study of Mus musculus with 10 samples.

Results

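Lymphatic endothelial genes are described here across mouse lungs with and without oxygen-induced injury. The 8 genes were Prox1, Flt4, Nrp2, Vegfc, Lyve1, Stab1, Reln and Mmrn1, out of 18193 genes that had a probe set (a group of probes for 1 transcript) annotated with a single gene symbol. They had 19 such probe sets among them. For each gene the probe set with the highest mean over the 10 arrays was taken as the leading one, and the others served as a check. Of the 8 genes, 7 reached a log2 value of 5 on at least 2 arrays and were tested. Prox1 did not.

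Whole lung RNA of ICR mice, an outbred albino stock, was hybridised to 10 Affymetrix expression arrays, 1 sample to an array. Newborn pups were pooled, divided at random, and kept in 80% oxygen or in room air until postnatal day 14 (P14) or day 29 (P29), with nursing dams exchanged between the chambers. The groups were P14 BPD (3 arrays, oxygen), P14 WT (2 arrays, room air), P29 BPD (3 arrays, oxygen) and P29 WT (2 arrays, room air). BPD stands for bronchopulmonary dysplasia, a lasting lung disease after preterm birth that high oxygen models in rodents, and WT for untreated mice of the same stock. No group carried an engineered allele. Whether the arrays of a group are separate animals is not stated in the labels, so the p-values reflect the spread between arrays, which may be technical.

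Lymphatic vessels drain fluid and immune cells from the lung and run along airways, larger vessels and the pleura. Their endothelium is specified by the transcription factor Prox1. It grows when the secreted ligand VEGF-C binds its receptor VEGFR-3, encoded by Flt4, with neuropilin-2 (Nrp2) as co-receptor. Lyve1, a hyaluronan receptor, marks the initial lymphatics but is also carried by some tissue macrophages. Stab1 is a scavenger receptor of sinusoidal and lymphatic endothelium and of macrophages, Reln a secreted glycoprotein made by collecting lymphatics and by neurons, and Mmrn1 a protein of endothelium and platelets.

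Some measures of the arrays moved with the groups. For actin, a control whose 3' signal exceeds its 5' signal where RNA is broken or copied only in part, this excess (the actin difference) was 1.33 to 2.21 on the 6 BPD arrays and 0.32 to 0.74 on the 4 WT arrays. The P14 arrays all had high Y-linked transcripts (mean of 3 genes 8.54 to 8.71 in BPD and 7.68 to 7.94 in WT), whereas the P29 groups differed, with 3.47 to 8.51 in BPD and 3.57 to 4.04 in WT. Xist, the X-inactivation transcript of female cells, was 6.63 to 6.99 on the P14 arrays and 12.48 and 12.66 on the P29 WT arrays. Among the P29 BPD arrays, replicate 1 had low Xist (7.12) and high Y-linked level (8.51), replicate 2 high Xist (12.54) and low Y-linked level (3.47), and replicate 3 both at high values (11.94 and 7.71). Replicate 3 thus carried both female and male transcripts, and whether it held RNA of more than 1 animal was not tested. The signal for 18S ribosomal RNA was 8.65 to 9.83 on the BPD arrays and 7.37 to 7.89 on the WT arrays, and the array median 6.41 to 6.45 in BPD and 6.46 to 6.47 in WT, both without overlap. Their part in the results was not tested beyond the alternative fits given here. All values below are log2 expression values, on which 1 unit is a doubling, and levels of different genes cannot be compared because probes differ in response. In whole lung, fewer cells of a type and less RNA per cell cannot be told apart.

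Upstream sequence is shown for the 4 genes that rose in BPD lungs at P14 and have an entry in the RefSeq promoter table. Each line gives the 250 bases before the annotated start on the gene's strand (GRCm38.p6), at chr8:54077282-54077531 (plus strand) for Vegfc, chr5:22344706-22344955 (minus) for Reln, chr6:60944067-60944316 (plus) for Mmrn1 and chr14:31168642-31168891 (minus) for Stab1. Capitals mark a match on either strand to AACAAT (SOX core), TGANTCA (AP-1), TGACNNNGC (antioxidant response core), ACGTG (hypoxia response core) or CCGGAA (ETS core).
Vegfc: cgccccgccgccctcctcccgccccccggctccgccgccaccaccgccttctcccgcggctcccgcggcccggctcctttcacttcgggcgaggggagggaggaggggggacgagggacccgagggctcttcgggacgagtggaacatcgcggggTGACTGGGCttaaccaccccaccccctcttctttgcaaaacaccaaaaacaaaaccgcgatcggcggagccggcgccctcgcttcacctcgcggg
Reln: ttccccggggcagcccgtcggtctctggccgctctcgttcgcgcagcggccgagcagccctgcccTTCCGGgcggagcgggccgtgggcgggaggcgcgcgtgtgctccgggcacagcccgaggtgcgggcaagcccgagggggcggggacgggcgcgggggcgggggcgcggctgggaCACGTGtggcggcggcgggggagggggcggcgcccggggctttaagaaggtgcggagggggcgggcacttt
Mmrn1: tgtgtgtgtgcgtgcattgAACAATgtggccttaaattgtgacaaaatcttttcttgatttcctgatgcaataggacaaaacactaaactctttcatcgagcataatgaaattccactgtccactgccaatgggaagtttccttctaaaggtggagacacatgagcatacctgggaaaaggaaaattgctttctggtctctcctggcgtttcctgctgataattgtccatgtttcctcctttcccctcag
Stab1: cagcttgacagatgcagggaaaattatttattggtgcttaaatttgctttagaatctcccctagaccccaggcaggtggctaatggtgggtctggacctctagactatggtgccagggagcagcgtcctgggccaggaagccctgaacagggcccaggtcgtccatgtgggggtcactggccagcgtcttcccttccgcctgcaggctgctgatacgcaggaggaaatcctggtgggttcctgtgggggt

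The windows differed in their matches. Vegfc had the antioxidant response core 95 bases before its start. Reln had the ETS core at 185 bases and, at 71 and 70 bases, the hypoxia response core on each strand, as overlapping matches in 1 palindrome. Mmrn1 had the SOX core at 231 bases, and Stab1 had none of the 5 motifs. Among 32851 mouse windows of the same length, 10.2% held the antioxidant response core, 16.6% the hypoxia response core, 12.0% the ETS core, 9.42% the SOX core and 6.75% AP-1. The windows of Vegfc and Reln were rich in G and C (71.6% and 80%, with 30 and 37 CpG sites), against medians of 52.4% and 6 sites, while Mmrn1 (42.4%, 3 sites) and Stab1 (57.2%, 5 sites) were not rich in CpG. A match is a description of letters and not a binding site. Of the 8 genes, 7 had an entry; Lyve1 did not.

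Prox1, the transcription factor that defines the lineage, stayed under the filter on every array. Its leading probe set read 3.70, 4.06 and 3.59 on the P14 BPD arrays, against 4.0 and 3.78 on the P14 WT arrays. At P29 it read 4.06, 3.44 and 3.77 in BPD, against 4.24 and 3.57 in WT. The groups overlapped at both ages, and no array of any of its 3 probe sets exceeded 4.24. When all 18193 genes were fitted without the filter, the log2 fold change was -0.11 ± 0.21 (SE) at P14 and -0.14 ± 0.21 at P29 (limma adjusted p = 0.704 and 0.592), values that describe background. The name of the set therefore rests on the other 7 genes, none of which is restricted to lymphatic endothelium.

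**Figure D1:**
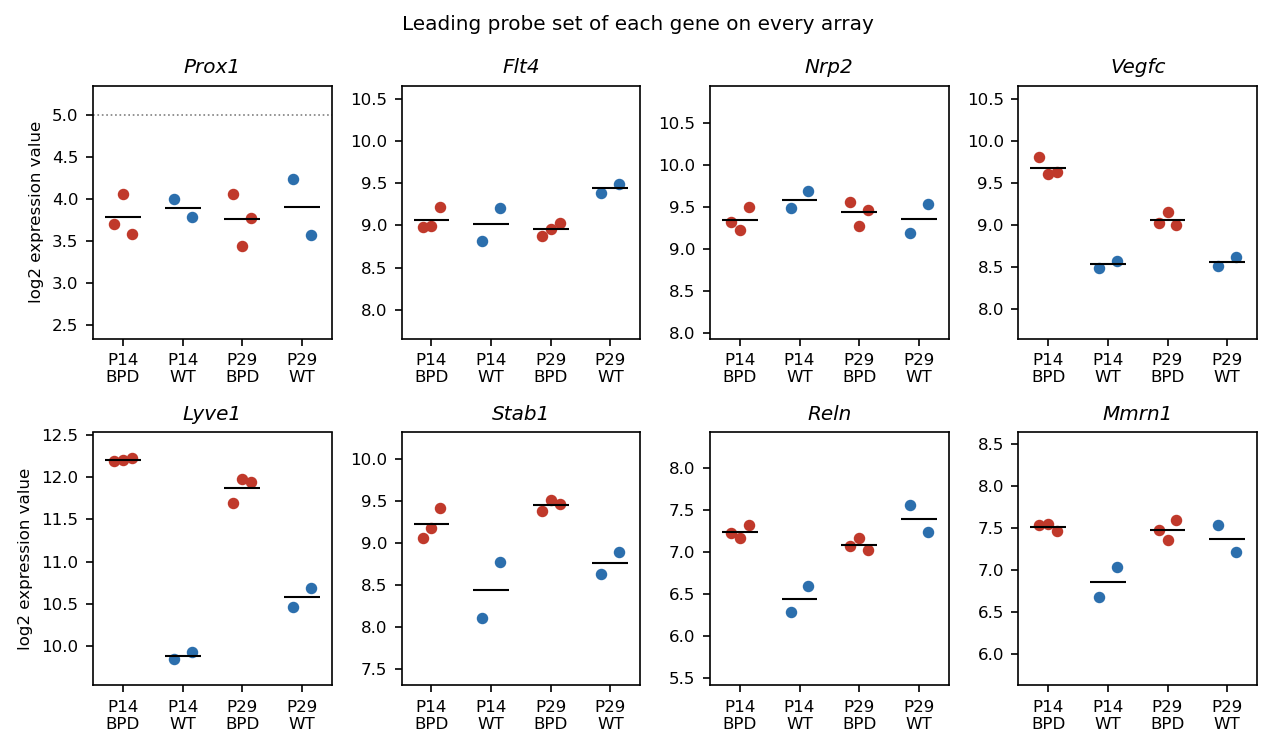
Log2 expression value of the leading probe set of each gene on every array, with BPD arrays in red and WT arrays in blue, group means as lines, and the same 3-unit span in each panel. The dotted line in the Prox1 panel is the log2 value of 5 used as the filter. Lyve1 sits between 12.19 and 12.23 in P14 BPD and between 9.84 and 9.92 in P14 WT, the widest separation of the 8 panels.

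The first comparison asked how the genes differed after 14 days of oxygen. The clearest change was in Lyve1, which was 5.02-fold higher in BPD lungs. Vegfc was 2.21-fold higher, Reln 1.74-fold, Stab1 1.71-fold and Mmrn1 1.58-fold. Flt4, which encodes the receptor VEGFR-3, and the co-receptor gene Nrp2 missed the threshold. Of 7 tested genes, 5 were higher and 0 lower, where 55% of all 14988 genes tested passed the threshold (32.3% of all genes higher and 22.8% lower). At an unadjusted p under 0.05 in limma the count lower was also 0. The median log2 fold change of the 7 was 0.78, against 0.04 over all genes tested.

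Lyve1 read 12.19, 12.21 and 12.23 on the P14 BPD arrays, against 9.84 and 9.92 on the WT arrays. The groups were far apart and the BPD arrays nearly equal. The log2 fold change was 2.33 ± 0.10 (SE, limma adjusted p = 1.18e-07), the 28th largest rise of 14988 genes. The second Lyve1 probe set gave 2.60.

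Vegfc, the growth factor of lymphatic endothelium, read 9.81, 9.60 and 9.63 in P14 BPD, against 8.49 and 8.57 in P14 WT. All BPD arrays lay above both WT arrays. The log2 fold change was 1.15 ± 0.09 (SE, limma adjusted p = 5.25e-06), and the other Vegfc probe sets gave 1.04 and 1.42.

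Its receptor Flt4 read 8.98, 9.0 and 9.21 in P14 BPD, against 8.82 and 9.21 in P14 WT, and the groups overlapped. The difference of 0.05 had a 95% interval from -0.22 to 0.31 (limma adjusted p = 0.756). The second, dimmer Flt4 probe set was lower in BPD by -0.43 (adjusted p = 0.0299 with every probe set fitted), so the Flt4 probe sets disagree at this age. Nrp2 read 9.33, 9.23 and 9.50 in P14 BPD, against 9.49 and 9.69 in P14 WT, with the highest BPD array just above the lowest WT array. Its difference was -0.24 with a 95% interval from -0.52 to 0.05 (limma adjusted p = 0.139). Nrp2 passed the threshold as lower when arrays were rescaled to quantiles (-0.39, adjusted p = 0.0213) or to their 75th percentile (-0.34, adjusted p = 0.0398), and 1 of its 3 other probe sets did so without rescaling (-0.45, adjusted p = 0.0412).

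Among the surface and matrix genes, Stab1 read 9.06, 9.18 and 9.41 in P14 BPD, against 8.11 and 8.77 in P14 WT. The WT arrays differed from each other by nearly as much as the groups did, although no array crossed over. The log2 fold change was 0.78 ± 0.17 (SE, limma adjusted p = 0.00288), and 0.44 (adjusted p = 0.0384) without P14 WT replicate 1. Reln read 7.23, 7.17 and 7.32 in P14 BPD, against 6.28 and 6.60 in P14 WT. The Reln groups did not overlap, and the log2 fold change was 0.80 ± 0.12 (SE, limma adjusted p = 0.000235). Mmrn1 read 7.54, 7.55 and 7.46 in P14 BPD, against 6.68 and 7.03 in P14 WT. Its groups did not overlap either, and the log2 fold change was 0.66 ± 0.13 (SE, limma adjusted p = 0.00113). Of the 7 tested genes, 5 had arrays that did not overlap between the groups, as did 71.3% of all genes tested.

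The actin difference did not overlap between BPD and WT arrays, and a fit with it as a term rests on its variation within groups. In that fit only Lyve1 (2.13, adjusted p = 0.00253) and Vegfc (1.24, adjusted p = 0.013) of the 5 P14 rises passed the threshold. Reln was at 0.65 (adjusted p = 0.144), Mmrn1 at 0.76 (adjusted p = 0.119) and Stab1 at 0.05 (adjusted p = 0.934). The number of all genes called fell to 1391 under this term, against 8250 without it.

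The second comparison asked the same at 29 days. Lyve1, Vegfc and Stab1 were again higher in BPD lungs, while Flt4 and Reln were lower and Mmrn1 and Nrp2 missed the threshold. Thus 3 of 7 genes were higher and 2 lower, where 59.7% of all genes passed the threshold (34.2% of all genes higher and 25.6% lower). The median log2 fold change of the 7 was 0.10, against 0.04 over all genes tested. The arrays of 5 genes did not overlap between the groups, as was so for 74.3% of all genes.

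Lyve1 read 11.69, 11.98 and 11.94 on the P29 BPD arrays, against 10.47 and 10.68 on the WT arrays. The groups were clearly apart, and the log2 fold change was 1.30 ± 0.10 (SE, 2.46-fold, limma adjusted p = 2.22e-06). The second Lyve1 probe set gave 1.55. Vegfc read 9.02, 9.16 and 9.0 in P29 BPD, against 8.51 and 8.61 in P29 WT. All BPD arrays were the higher ones, and the log2 fold change was 0.50 ± 0.09 (SE, limma adjusted p = 0.000744), with 0.28 and 0.69 from the other probe sets. With the actin term Lyve1 stood at 1.11 (adjusted p = 0.00866) and Vegfc at 0.58 (adjusted p = 0.0629). Stab1 read 9.38, 9.51 and 9.45 in P29 BPD, against 8.63 and 8.89 in P29 WT. The BPD arrays were all above the WT arrays, and the log2 fold change was 0.69 ± 0.17 (SE, limma adjusted p = 0.00517). Without P29 WT replicate 1 it was 0.56 (adjusted p = 0.0561), and with the actin term 0.01 (adjusted p = 0.992).

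Flt4, the gene of VEGFR-3, read 8.87, 8.96 and 9.03 in P29 BPD, against 9.39 and 9.49 in P29 WT. All BPD arrays lay below both WT arrays, and the log2 fold change was -0.49 ± 0.12 (SE, limma adjusted p = 0.0047). The second Flt4 probe set gave -0.54, and the actin term -0.94 (adjusted p = 0.015). Nrp2 read 9.56, 9.28 and 9.47 in P29 BPD, against 9.19 and 9.54 in P29 WT, and the groups overlapped. Its difference was 0.07 with a 95% interval from -0.21 to 0.36 (limma adjusted p = 0.638).

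Reln read 7.06, 7.16 and 7.02 in P29 BPD, against 7.55 and 7.23 in P29 WT. The WT arrays were the higher ones, by a small margin for replicate 2, and the log2 fold change was -0.31 ± 0.12 (SE, limma adjusted p = 0.0384). This call ended in 9 of 25 alternative settings. Among them were the fit without P29 WT replicate 1 (-0.15, adjusted p = 0.362), the Y-linked term (-0.27, adjusted p = 0.162), and P29 BPD replicate 2, which like the P29 WT arrays had high Xist and low Y-linked transcripts, as the sole P29 BPD array (-0.24, adjusted p = 0.273). Without P29 WT replicate 2 the value was -0.47 (adjusted p = 0.0139). Mmrn1 read 7.47, 7.36 and 7.59 in P29 BPD, against 7.53 and 7.21 in P29 WT, with overlapping groups. Its difference was 0.10 with a 95% interval from -0.17 to 0.38 (limma adjusted p = 0.495).

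**Figure D2:**
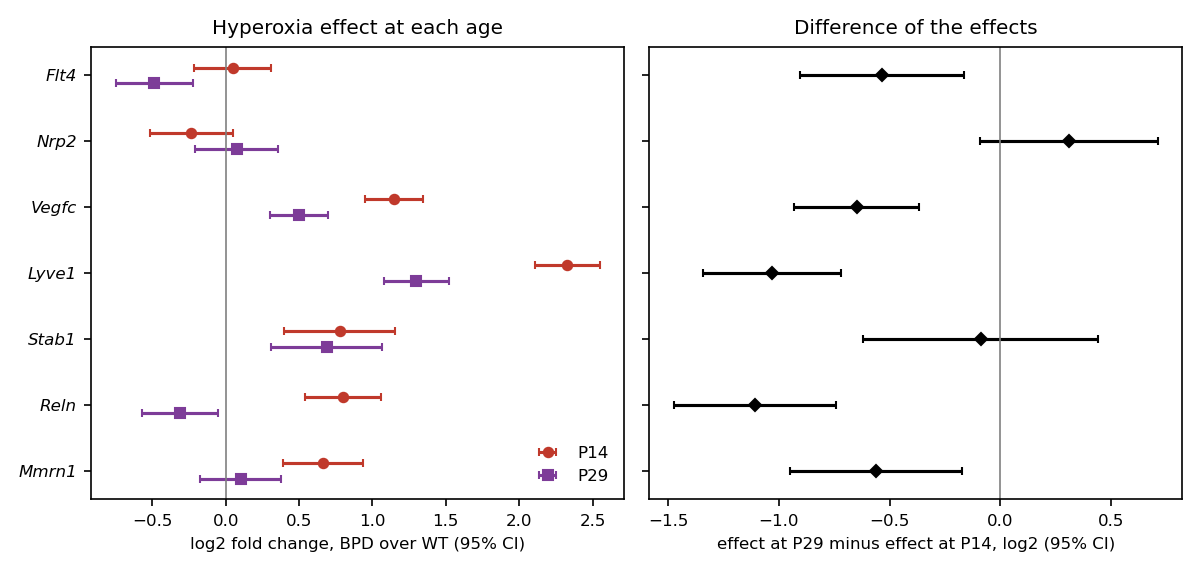
Left, log2 fold change of BPD over WT with its 95% interval for the 7 tested genes at P14 (circles) and P29 (squares); right, the P29 effect minus the P14 effect with its 95% interval. Lyve1 is highest at both ages, and the interval of the difference lies below 0 for 5 genes and spans 0 for Nrp2 and Stab1.

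The difference between the ages was tested directly. For 5 of the 7 genes the effect of oxygen was lower at P29 than at P14, and for 0 it was higher, also at an unadjusted p under 0.05, where 22.5% of all genes passed this test, 11% higher and 11.6% lower. Some lists described below leaned the same way. Of 22 blood endothelial markers 13 were lower and 1 higher, with a median of -0.52, against -0.56 for the 7 genes. Of 36 specification and valve genes 15 were lower and 4 higher, and of 9 mesothelial markers 7 were lower and 0 higher. Cell cycle genes went the other way, with 18 of 18 higher. Of 18 resident interstitial macrophage markers 7 were higher and 3 lower. Reln differed by -1.11 ± 0.17 (SE, limma adjusted p = 0.000833), with opposite signs at the ages, and Lyve1 by -1.03 ± 0.14 (adjusted p = 0.000519). Vegfc differed by -0.65 ± 0.13 (adjusted p = 0.00434). Mmrn1 (-0.56 ± 0.18, adjusted p = 0.042) and Flt4 (-0.53 ± 0.17, adjusted p = 0.0421) were close to the threshold, and Flt4 kept its call in 10 and Mmrn1 in 11 of 24 alternatives. The second Flt4 probe set differed by -0.11 (limma adjusted p = 0.776 with every probe set fitted). Leaving out any 1 of P14 BPD replicates 2 and 3, P14 WT replicate 1, P29 BPD replicates 1 and 2 and P29 WT replicate 1 brought the count to 3, with Flt4 at -0.34 without P14 WT replicate 1. Stab1 differed by -0.09 with a 95% interval from -0.62 to 0.44, and Nrp2 by 0.31 with an interval from -0.09 to 0.71, so both intervals spanned 0. The P14 arrays carried male transcripts, the P29 WT arrays female ones and the P29 BPD arrays a mix, so this difference is confounded with sex. With the Y-linked term 4 of the 7 genes passed, as Flt4 no longer did (-0.53, limma adjusted p = 0.0766). Within groups the Y-linked level varied mainly among the P29 BPD arrays (3.47 to 8.51). The fit with this term therefore cannot remove the confounding with sex.

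With age itself, the WT and BPD lungs share the arrays of the comparisons above, so their values are given side by side and no overlap is drawn from them. In WT lungs 4 of 7 genes were higher at P29 than at P14 and 0 lower, where 41.3% of all genes passed, 22.2% higher and 19.1% lower. These were Reln (0.95 ± 0.13, SE, limma adjusted p = 0.000126), Lyve1 (0.69 ± 0.11, adjusted p = 0.000422), Mmrn1 (0.52 ± 0.14, adjusted p = 0.0104) and Flt4 (0.42 ± 0.13, adjusted p = 0.0225). The second Flt4 probe set gave 0.10 (adjusted p = 0.671 with every probe set fitted). Without P14 WT replicate 1 the count was 2, as Mmrn1 (0.34) and Flt4 (0.23) no longer passed. In BPD lungs 2 of 7 were lower at P29 than at P14 and 0 higher, where 27.1% of all genes passed, 15.4% higher and 11.7% lower. These were Vegfc (-0.62 ± 0.08, adjusted p = 0.000277) and Lyve1 (-0.34 ± 0.09, adjusted p = 0.0166), and Lyve1 lost its call without P14 BPD replicate 3 (adjusted p just over 0.05) or P29 BPD replicate 1 (adjusted p = 0.0648). The age comparison of WT lungs also sets P29 arrays with female transcripts against P14 arrays with male ones. Both counts of 0 were also 0 at an unadjusted p under 0.05 (limma). Under the Y-linked term, which rests mainly on the P29 BPD arrays, 3996 genes passed in WT, against 6195 without it. Flt4 no longer passed (0.41, limma adjusted p = 0.153).

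The order of the group means differed between the genes. Lyve1 ran from P14 BPD (12.21) through P29 BPD (11.87) and P29 WT (10.57) to P14 WT (9.88), with no overlap between neighbours. Vegfc had the same order, from 9.68 in P14 BPD and 9.06 in P29 BPD to 8.56 in P29 WT and 8.53 in P14 WT, the WT groups overlapping. Stab1 was highest in P29 BPD (9.45), then P14 BPD (9.22), P29 WT (8.76) and P14 WT (8.44), with overlap within each treatment and none between P14 BPD and P29 WT. Reln and Mmrn1 were lowest in P14 WT (6.44 and 6.86), clear of the group above it. Flt4 was highest in P29 WT (9.44), clear of the other groups, which overlapped. Neighbouring groups of Nrp2 overlapped throughout, from 9.35 to 9.59.

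**Figure D3:**
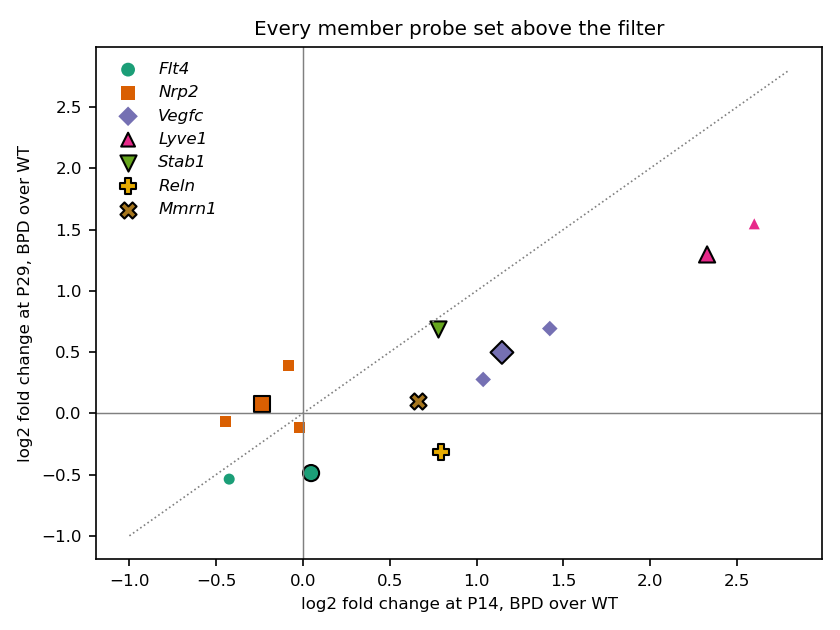
Log2 fold change of BPD over WT at P14 (horizontal) and P29 (vertical) for every probe set above the filter of the 7 genes, the leading ones larger and outlined, with the line of equal effects dotted. The probe sets of Lyve1 and Vegfc lie close to each other and below the line, whereas those of Flt4 differ at P14 (0.05 and -0.43).

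Some genes followed one another over the 10 arrays. Lyve1 correlated with Vegfc at r = 0.89, with Stab1 at 0.86 and with Mmrn1 at 0.79, and Reln with Mmrn1 at 0.84, whereas Lyve1 and Flt4 correlated at -0.28. These values describe 10 arrays that fall into 4 groups and share those group differences. Among all genes, those nearest to Lyve1 in pattern were Gramd1c (r = 0.996), Wdr13 (0.994) and Ik (0.991). Nearest to Vegfc were Ap4b1 (0.99), Slc25a16 (0.984) and 9630050P21Rik (0.984). Spns2, a sphingosine-1-phosphate transporter of endothelial cells, was nearest to Flt4 (0.979), ahead of Tmem63b (0.937) and Gse1 (0.933). For Reln they were Zfp474 (0.974), Avpi1 (0.97) and Fkbp15 (0.963), and for Mmrn1 they were Myom1 (0.958), Marchf6 (0.957) and Cldn8 (0.949). For Stab1 they were Clec16a (0.991), Rrbp1 (0.987) and Lrp6 (0.984), and for Nrp2 Dph2 (0.89), Neurl4 (0.865) and Nfya (0.848).

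The wider VEGF-C pathway, a list of ligands, processing enzymes, receptors and semaphorins that excludes the 8 genes, moved both ways. At P14, 7 of its 21 tested genes were higher and 6 lower, with a median log2 fold change of 0.04, and at P29 7 were higher and 7 lower, with a median of -0.12. Thus 61.9% of the list passed at P14 and 66.7% at P29, against 55% and 59.7% of all genes. The median over all genes was 0.04 at both ages. Without P14 WT replicate 1 the P14 counts were 4 higher and 4 lower. Flt1, a receptor that binds VEGF-A, was higher at P14 (10.14 ± 0.05 in BPD against 9.18 ± 0.40 in WT, SD, n = 3 and 2, limma adjusted p = 0.000291). Vegfd, the other ligand of VEGFR-3, was higher at P29 (10.67 in BPD against 9.66 in WT, log2 fold change 1.01 ± 0.12, SE, adjusted p = 3.42e-05). The other Vegfd probe sets gave 0.90 and 0.21 at P29. Ctsd, a protease that can process VEGF-C and VEGF-D, was lower at P14 (-0.83) and P29 (-0.69). Semaphorins that bind neuropilins were also lower, Sema3f at both ages (-0.55 and -0.83) and Sema3g at P29 (-1.36), although Sema3g was higher at P14 (0.46, limma adjusted p = 0.0296). Ptpn14, a phosphatase that acts on VEGFR-3, was higher at P14 (0.67), but its other probe sets were at 0.04 and 0.00.

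Other markers of lymphatic endothelium also moved both ways. Of 22 tested, 9 were higher and 5 lower at P14 (median 0.12), and 10 higher and 7 lower at P29 (median 0.24). Thus 63.6% passed at P14 and 77.3% at P29, against 55% and 59.7% of all genes. Without P14 WT replicate 1 the P14 counts were 6 higher and 2 lower. Clca3a1, a chloride channel regulator used as a marker of lymphatic endothelium, was higher by 2.37 ± 0.20 (SE, limma adjusted p = 7e-06) at P14 and by 2.38 ± 0.20 (adjusted p = 3.19e-06) at P29, on a probe set that may also read its near-identical relatives. Its means were 7.70 in BPD against 5.33 in WT at P14, and 6.93 in BPD against 4.55 in WT at P29, so the WT values lay near or under the filter. Klhl4 was higher by 1.71 at P14 and by 2.85 at P29, where its WT mean of 4.54 was under the filter. Fgl2 was higher at P14 (0.96). The ferroxidase Cp was higher at P29 (1.02) and the tetraspanin Cd9 lower (-1.24), though Cd9 is also on the alveolar macrophage list below. The Timp3 probe sets disagreed at P14, the leading one at 0.84 and another at -1.26. Nts was below the filter on every array.

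Genes of lymphatic specification and valve formation, most of which act in blood endothelium too, also moved both ways. Of 36 tested, 9 were higher and 8 lower at P14 (median 0.04), and 10 higher and 16 lower at P29 (median -0.17). Thus 47.2% passed at P14 and 72.2% at P29, against 55% and 59.7% of all genes. Sox18, the factor that switches on Prox1 in the embryo, was lower at P14 by -0.94 ± 0.10 (SE, limma adjusted p = 2.89e-05), while Foxc1, a forkhead factor of vessel development, was higher by 1.20 ± 0.11 (adjusted p = 1.43e-05), with a WT mean of 5.03 near the filter. At P29 Tek, the angiopoietin receptor, was lower by -1.69 ± 0.11 (adjusted p = 6.54e-07) and Ramp2, the partner of the adrenomedullin receptor, by -1.65 ± 0.10 (adjusted p = 4.64e-07). Spred1 was higher at P29 by 0.91 ± 0.09 (limma adjusted p = 8.91e-06), and its other probe sets ran from -0.15 to 1.37. The BMP9 receptor gene Acvrl1 was lower by -1.07 at P14 and -1.78 at P29 on its leading probe set, with 0.33 and 0.01 on another. Efnb2, a valve gene, was higher at P14 on its leading probe set (0.91), with -0.61 on another.

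Markers of other cells that carry some of the 8 genes moved with the groups, and their part in the results was not tested. A list count of 0 given here was also 0 at an unadjusted p under 0.05, except that 1 interstitial macrophage marker was then lower at P14. Resident interstitial macrophages can carry Lyve1 and Stab1. Of 18 tested markers of these cells, 8 were higher and 0 lower at P14 and 11 higher and 1 lower at P29. The log2 of their summed level was 15.55 to 15.58 in P14 BPD against 15.39 to 15.45 in P14 WT, and 15.64 to 15.74 in P29 BPD against 15.72 to 15.73 in P29 WT. Such sums, here and below, weigh the brightest genes of a list most. In this list Cbr2 alone averaged 14.03 in P14 BPD and 13.70 in P14 WT. Which cells gave the Cbr2 signal was not tested, so the sum cannot be read as a level of macrophages. Gas6 and F13a1 were higher at P14 (0.85 and 0.53), and Ccl8 at P29 (2.54). The other Gas6 probe set was at -0.18 at P14. C1qa (-0.13), C1qb (-0.03) and Maf (-0.17) did not pass the threshold at P14, although other C1qb probe sets were at 0.76 and 1.26. Of 10 alveolar macrophage markers, 1 was higher and 7 lower at P14, and 0 higher and 9 lower at P29. Over all genes tested, 55% passed at P14 (32.3% higher and 22.8% lower) and 59.7% at P29 (34.2% higher and 25.6% lower).

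Blood endothelial cells can carry Flt4 and Nrp2. Of 22 tested markers of these cells, 7 were higher and 10 lower at P14 (median -0.17), and 0 higher and 16 lower at P29 (median -0.76). Their summed level was 15.35 to 15.46 in P14 BPD against 15.52 to 15.58 in P14 WT, and 14.93 to 15.08 in P29 BPD against 15.73 to 15.80 in P29 WT. Gpihbp1, which anchors lipoprotein lipase on capillaries, was lower at P29 (-3.13), as was the stem cell factor receptor Kit (-3.36). The von Willebrand factor gene Vwf was higher at P14 (1.48). Of the whole list, 77.3% passed at P14 and 72.7% at P29, against 55% and 59.7% of all genes.

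Platelets can carry Mmrn1, and 3 of 13 platelet and megakaryocyte markers were higher and 6 lower at P14, with 3 and 8 at P29. Their summed level overlapped between the groups at both ages, at 11.06 to 11.21 in P14 BPD against 11.02 to 11.17 in P14 WT, and 11.01 to 11.07 in P29 BPD against 10.91 to 11.13 in P29 WT. Neurons can carry Reln, and 4 of the 9 neuronal and neuroendocrine markers with a probe set were below the filter on every array. Their summed level was 8.19 to 8.28 in P14 BPD against 8.30 to 8.42 in P14 WT, and 8.21 to 8.31 in P29 BPD against 8.37 to 8.45 in P29 WT. Mesothelial markers of the pleural surface were higher at P14 in 8 of 9 cases and lower in 0, with a median of 1.12, and at P29 2 were higher and 2 lower. Their summed level was 12.83 to 12.90 in P14 BPD against 11.91 to 12.02 in P14 WT, and 12.56 to 12.88 in P29 BPD against 12.78 to 12.93 in P29 WT. In liver, Lyve1 and Stab1 are carried by sinusoidal endothelium and not by hepatocytes, so hepatocyte markers serve here only as a sign of liver tissue. Of 6 hepatocyte markers 0 were higher and 3 lower at P14, and 0 higher and 2 lower at P29. Beside these counts, 55% of all genes passed at P14 (32.3% higher and 22.8% lower) and 59.7% at P29 (34.2% higher and 25.6% lower).

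**Figure D4:**
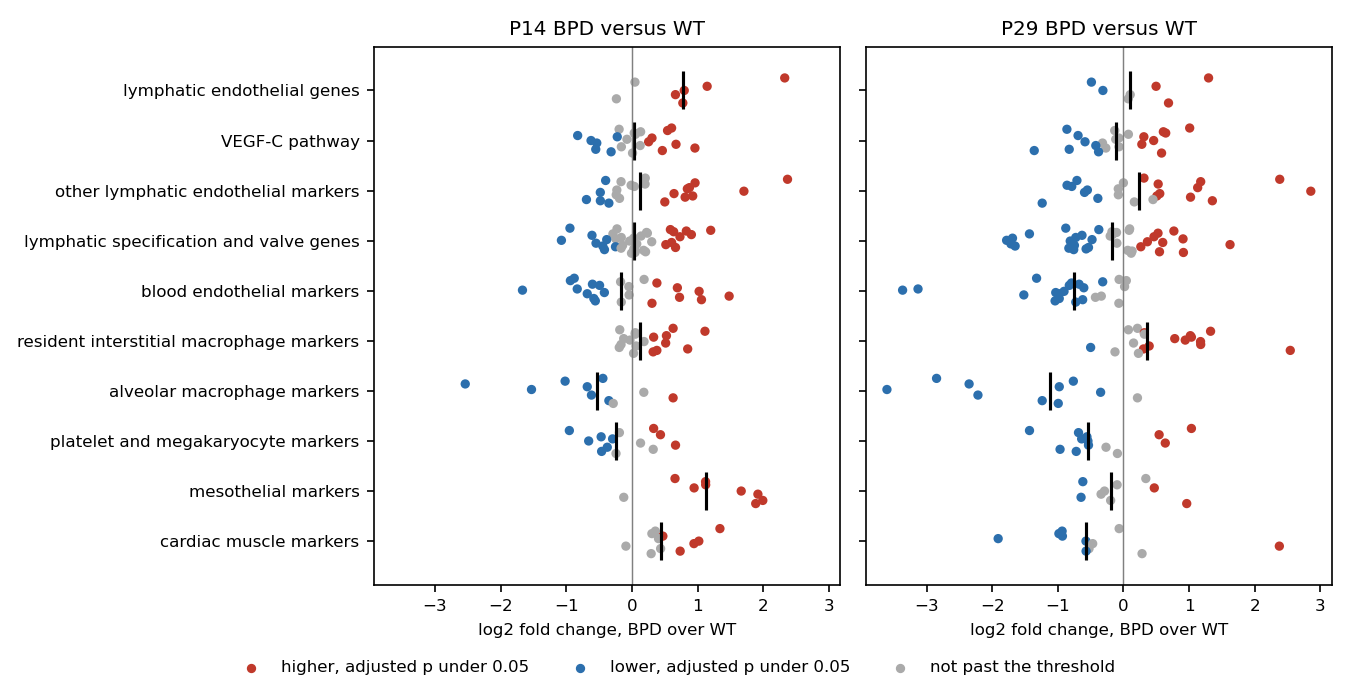
Log2 fold change of BPD over WT at P14 (left) and P29 (right) for each tested gene of the lymphatic endothelial set and of 9 lists, coloured by whether the limma adjusted p was under 0.05, with the list median as a black line. The 8 mesothelial genes that passed at P14 lie to the right of 0, and the 16 blood endothelial genes that passed at P29 lie to the left.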

How the data were processed

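Expression was measured on 10 arrays, and the log2 values of the authors' deposited table were the starting point. Partek 6.4 and GCRMA (no version) appear in the submitters' processing notes; how they were set is not given in the sources used here. No genome build is named for the array, so coordinates accompany only the RefSeq upstream sequences (GRCm38.p6). The platform annotation gave 1 symbol to 34945 of 45101 probe sets, which were used; 932 had several symbols and 9211 none. A gene was read from its brightest probe set by mean over all arrays. The filter asked for log2 5 on 2 arrays and left 14988 of 18193 genes.

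A model with 1 mean per group was fitted to all 10 arrays (limma 3.58.1, R 4.3.3, lmFit with eBayes, 6 residual and 5.09 prior degrees of freedom). It gave 5 contrasts, tested two-sided with Benjamini-Hochberg adjustment over the 14988 genes and a threshold of 0.05. The number of arrays limits the precision. SE is that of a contrast and SD that between arrays of a group. The steps were tested on simulated data, and no pair of arrays was a duplicate.

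The 14 gene lists, the members among them, were chosen with earlier results of these data known, so their counts are descriptions. Some lists share genes, such as Maf, Cd9, Pf4, Mrc1 and Car4, so their counts are not separate readings. Named genes were all members, up to 4 genes of smallest p per list and comparison, and the 3 genes with the highest r to each member. Motifs were searched on both strands in the 250 bases upstream. The 25 alternatives tried were other filters, probe set choices, variance models, scalings, array weights, a replicate block, each array left out, and terms for actin and Y-linked level.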

Additional observations from a re-analysis of the deposited data

Results flagged for a closer look

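The effect of oxygen differed between the ages in the limma test of the difference itself for 5 genes. The P29 effect minus the P14 effect was -1.11 for Reln, -1.03 for Lyve1, -0.65 for Vegfc, -0.56 for Mmrn1 and -0.53 for Flt4, on the log2 scale. For Reln the effect was -0.31 at P29 and 0.80 at P14, and for Flt4 it was -0.49 at P29 and 0.05 at P14. On the second Flt4 probe set the effect was -0.54 at P29 and -0.43 at P14. That probe set differed by only -0.11 between the ages (limma adjusted p = 0.776 with every probe set fitted). For Lyve1 it was 1.30 at P29 and 2.33 at P14, for Vegfc 0.50 at P29 and 1.15 at P14, and for Mmrn1 0.10 at P29 and 0.66 at P14. The WT arrays of these genes were not level with age either, since Reln, Lyve1, Mmrn1 and Flt4 were higher in WT at P29 than at P14 while Vegfc differed by 0.03. Each group held 2 or 3 arrays, too few for a check of single arrays that stand apart. Male and female transcripts were also spread unevenly over the groups, as given above. Blood endothelial markers, specification and valve genes and mesothelial markers leaned the same way between the ages, with their counts above.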

How the results depend on the processing

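Of 868 recomputed fold changes of the 7 genes under 25 alternatives, 810 kept their side of the threshold, 54 lost the call and 4 gained it. The sign changed in 30, none of them called in the fit reported; 1 was called in the alternative, Flt4 at P14 with the most variable probe set (-0.43, against 0.05). Lyve1 and Vegfc kept their P14 calls, and Lyve1 and Flt4 their P29 calls, in all alternatives run. The count of genes called was 2 at P14 and 2 at P29 with the actin term, against 5 and 5 without it. Leaving out each array gave 5 to 5 at P14, 3 to 5 at P29, 3 to 5 for the difference of effects, 1 to 2 for age in BPD and 2 to 5 for age in WT. The count for the difference was 3 with the mean of a gene's probe sets, with the most variable probe set, with every probe set fitted, and with P29 BPD replicate 2 as the only P29 BPD array, which also gave 1 for age in BPD. With the mean of probe sets it was 2 for age in WT. The cause was not tested. The fit of the compared groups alone was not run for the difference, which uses all groups.

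Deviations of same-numbered arrays from their group means correlated at -0.10 to 0.20, over 0.1 in 2 of 13 pairs. With 2 or 3 arrays a group these deviations are tied to one another, so they cannot show whether replicate numbers pair the arrays. The replicate block gave 5 genes at P14, 4 at P29 (Reln at -0.32, adjusted p = 0.0721), 4 for the difference (Mmrn1 adjusted p = 0.072), 2 for age in BPD and 4 for age in WT. All genes called were 1391 at P14 (8250 in the fit reported) and 2905 at P29 (8950) with the actin term, 3996 for age in WT (6195) with the Y-linked term, and 2087 (3377) for the difference and 2088 (4064) for age in BPD with P29 BPD replicate 2 alone. Of the genes called, 58.6% were higher at P14 and 57.2% at P29, against 44.7% and 40.8% with arrays set to their 75th percentile, and 52.7% and 51.3% with quantile scaling. The median of all genes at P14 moved to -0.06 with the 75th percentile scaling, against 0.04, and at P29 to -0.10, against 0.04. VEGF-C pathway calls were 1 at P14 and 5 at P29 with the actin term, 8 at P14 without P14 WT replicate 1, 9 at P29 with the Y-linked term and 8 at P29 with P29 BPD replicate 2 alone, against 13 and 14. With the mean of probe sets they were 5 for the difference, against 9, and 8 for age in BPD, against 5. Other lymphatic marker calls at P14 were 5 with the actin term and 8 without P14 WT replicate 1, against 14, and 11 at P29 with the actin term, against 17. Specification and valve gene calls were 5 at P14 (1 higher, 4 lower) and 17 at P29 (3 higher, 14 lower) with the actin term and 27 at P14 with the most variable probe set, against 17 and 26. With P29 BPD replicate 2 alone they were 7 for age in BPD, against 18, and other lymphatic markers 10, against 16. With 2 or 3 arrays a group, precision is limited, and a dim gene such as Prox1 gives no usable value.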

Other observations

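Further marker lists, not set beside a result above, also differed. Of 18 cell cycle genes, 11 were higher and 0 lower in BPD at P14, and 18 were higher and 0 lower at P29, with median log2 fold changes of 0.42 and 1.88. Cardiac muscle markers, which come with heart or pulmonary vein muscle in a dissected lung and which can carry Prox1, were higher at P14 in 5 of 11 cases and lower in 0, and at P29 1 was higher and 6 lower. Their summed log2 level was 13.46 to 13.64 in P14 BPD against 12.80 to 13.04 in P14 WT, and 12.97 to 13.74 in P29 BPD against 13.85 to 14.14 in P29 WT. Of 8 lymph node stroma and T cell markers, 1 was higher and 6 lower at P14, and 0 were higher and 6 lower at P29, with 1 higher at an unadjusted p under 0.05. The other counts of 0 in these lists were also 0 at an unadjusted p under 0.05 (limma). Among all genes tested, 55% passed at P14 (32.3% higher and 22.8% lower) and 59.7% at P29 (34.2% higher and 25.6% lower).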
